A study of Mus musculus with 4 samples.

Results

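The genes of the Wnt pathway that act at and around the cell surface were examined in primary mammary tumors of mice with and without Rank. The group comprised the 19 Wnt ligand genes, 2 genes of ligand processing, the 10 frizzled receptor genes, 4 co-receptor genes, 9 genes of the R-spondin axis, 10 antagonist genes and 5 genes of the beta-catenin complex and its nuclear partners, 59 of the 23746 gene rows of the tables. Members were chosen by symbol, as every Wnt, Fzd, Sfrp, Dkk, Rspo and Lgr4 to Lgr6 gene together with 15 named genes. All 4 tumors came from females in which the WapCreC transgene deleted floxed Brca1 and p53 alleles, and the WapCreC;Rank;Brca1;p53 triple-mutant tumors 26043 and 26044 carried in addition a floxed Rank allele that the WapCreC;Brca1;p53 double-mutant tumors 26048 and 26050 did not. Cre driven by the Wap promoter in this line is active in luminal and basal mammary epithelium, so stromal cells within a tumor keep Rank. Age and grade of the 4 sequenced tumors were not given in the sources used here, nor which females were littermates. PolyA mRNA was sequenced and expressed as FPKM, fragments per kilobase of transcript scaled to the mapped fragments of the tumor, a unit that allows levels of different genes to be compared.

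Wnt proteins are secreted, lipid-modified ligands that bind a frizzled receptor. Together with Lrp5 or Lrp6 the bound receptor stops the destruction complex around Axin, so that beta-catenin accumulates and enters the nucleus to act with the TCF/LEF factors, while Ror receptors carry beta-catenin-independent responses. In the mammary gland Wnt signals maintain basal stem cells, and progesterone induces both Wnt4 and the RANK ligand in hormone-sensing luminal cells.

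The start sites of the pathway genes had a base composition in common that the choice of members did not use. In RefSeq (GRCm38.p6), windows of 300 bases, from 250 before to 50 after a start site, were at hand for 38 of the 59 genes, 47 windows in all, and 21 genes had none. The median window held 24 CpG dinucleotides against 7 in all 32851 windows of the genome table, and its GC content was 67.3% against 52.7%. Only 2 of the 47 windows, 4.26%, held fewer than 5 CpG, against 38% of all windows. Wnt6 and Rspo4, the members with the smallest adjusted p, Axin2, the feedback gene of the pathway, and Fzd5, the gene most strongly displaced the other way, are shown by the 90 bases before their start, 5′ to 3′, with each CpG in capitals. They lie at chr1:74771802-74771891 (plus strand, 8 CpG), chr2:151842837-151842926 (plus strand, 15), chr11:108920259-108920348 (plus strand, 15) and chr1:64737751-64737840 (minus strand, 11).
Wnt6: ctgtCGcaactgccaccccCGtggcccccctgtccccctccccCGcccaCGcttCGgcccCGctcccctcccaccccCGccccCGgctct
Rspo4: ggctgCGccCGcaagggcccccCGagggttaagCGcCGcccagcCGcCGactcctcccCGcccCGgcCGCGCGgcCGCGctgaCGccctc
Axin2: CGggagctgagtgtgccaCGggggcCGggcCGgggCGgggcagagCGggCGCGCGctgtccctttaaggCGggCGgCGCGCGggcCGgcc
Fzd5: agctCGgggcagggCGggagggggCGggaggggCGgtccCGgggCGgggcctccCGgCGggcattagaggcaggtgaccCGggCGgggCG

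The core of the TCF/LEF binding motif, CTTTGAT or its reverse complement ATCAAAG, was searched on both strands of the same windows. It was found in 2 of the 47, 4.26%, against 3.73% of all windows. Both belong to ligand genes and are shown with the core in capitals, at chr6:119449431-119449477 (minus strand) for Wnt5b and chr7:98835041-98835087 (plus strand) for Wnt11. The Wnt5b match belongs to a start inside the span of its gene row, and the Wnt11 match to a start outside the span of its row.
Wnt5b: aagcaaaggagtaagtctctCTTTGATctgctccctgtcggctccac
Wnt11: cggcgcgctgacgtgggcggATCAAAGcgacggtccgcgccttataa

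The labels were checked first. Tnfrsf11a, which encodes RANK, was at 2.07 and 0.962 FPKM in the triple-mutant tumors and at 10.6 and 11.9 in the double-mutant tumors. Brca1 lay between 3.26 and 5.69 in the 4 tumors, and Trp53 was at 15.7 and 87.8 against 150.0 and 103.0. Both genotypes share the floxed Brca1 and p53 alleles and no tumor without them was sequenced, so the levels of Brca1 and Trp53 do not check the labels. Between 12150 and 12681 genes per tumor reached 1 FPKM. The depth of each tumor is unknown, since the tables hold FPKM without counts. Krt8, Krt18 and Epcam, markers of luminal epithelium, were present in all tumors, lowest in tumor 26044, where Epcam was at 25.7 FPKM against 347 to 516 in the others. Tumor 26048 stood out by adipocyte genes, with Adipoq at 56.0 FPKM against at most 0.829 elsewhere.

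Of the 59 genes, 41 reached 1 FPKM in at least 2 tumors and were tested. More of them were higher in triple-mutant than in double-mutant tumors. For 21 of the 41, 51.2%, both triple-mutant tumors lay above both double-mutant tumors, where 21.3% of the 12752 tested genes did so. The reverse held for 5 of the 41, 12.2%, against 22.9% of all genes, and in 15 the genotypes overlapped. The log2 fold change was also at least 1 in size in 17 of the genes higher in triple-mutant tumors and in 2 of those higher in double-mutant tumors. The backgrounds were 7.3% and 4.65%. The log2 fold change is a difference of means, so single tumors of different genotype can lie closer, as for Wnt5b and Wif1 below. The median log2 fold change of FPKM + 1, triple-mutant minus double-mutant, was 0.79 over the 41 genes and -0.02 over all tested genes.

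None of the 41 genes passed limma at an adjusted p of 0.05, and 0% of the 12752 tested genes did. At an unadjusted p of 0.05, limma selected 16 of the 41, of which 14 were higher in triple-mutant tumors, with a background of 5.91%, and 2 in double-mutant tumors, with a background of 3.91%. The smallest p that exact permutation of 2 tumors against 2 allows for a gene is 0.333, and p-values here measure the spread between these tumors only. Wnt6, Fzd10, Rspo4 and Axin2 passed the filter only through the triple-mutant tumors and Sfrp4 only through the double-mutant tumors, so these 5 had to differ. Among the other 36, 17 lay higher in both triple-mutant tumors, 47.2% against 19.8% of all genes treated alike, 4 lay higher in both double-mutant tumors, 11.1% against 22.6%, and the median was 0.34 against -0.03. Without tumor 26050 the median over the 41 genes was 0.40, and the genes higher in double-mutant tumors numbered 10. That is 24.4%, where 36.3% of all genes were separated that way among the 3 tumors. Without tumor 26043 or 26044 they numbered 9, or 22%, against 45.1% and 31.9% of all genes.

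**Figure D1:**
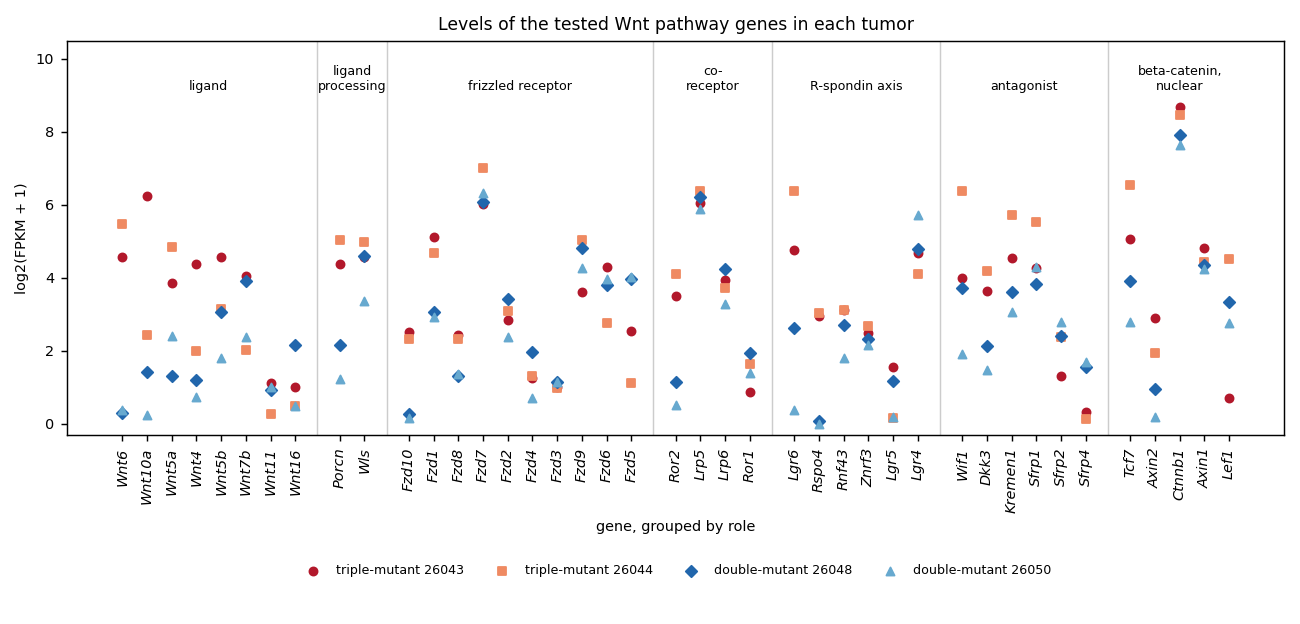
Level of each of the 41 tested genes in the 4 tumors, as log2(FPKM + 1), with genes grouped by role along the horizontal axis. Red circles and orange squares are triple-mutant tumors 26043 and 26044, dark blue diamonds and light blue triangles double-mutant tumors 26048 and 26050. Ctnnb1 lies highest in every tumor, the 4 points of Lrp5 lie close together, and Wnt6, Porcn, Fzd10, Ror2 and Rspo4 show the red and orange points well above the blue ones.

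The ligand mRNAs were more abundant in both triple-mutant tumors. Summed over the 19 genes, ligand mRNA was at 173 and 91.3 FPKM in the triple-mutant tumors and at 31.9 and 14.7 in the double-mutant tumors, and 5 of the 8 tested ligands, 62.5% against 21.3% of all tested genes, lay higher in both triple-mutant tumors. None lay higher in both double-mutant tumors (background 22.9%). Among the 5 is Wnt6, which passed the filter only through the triple-mutant tumors. Wnt6 was at 22.7 and 43.2 FPKM against 0.235 and 0.298, so that both double-mutant tumors were below the filter. Its log2 fold change was 4.68 (SE 0.42, limma, adjusted p = 0.143). Wnt5a, best known for beta-catenin-independent signaling, was at 13.6 and 27.9 FPKM against 1.47 and 4.27, with no overlap and a log2 fold change of 2.51 (SE 0.57, limma, adjusted p = 0.386).

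The other 3 separated ligands owed much of their difference to tumor 26043. Wnt10a, which signals through beta-catenin, was at 75.5 FPKM there, at 4.42 in the other triple-mutant tumor and at 1.67 and 0.174 in the double-mutant tumors. The genotypes did not overlap, but the triple-mutant tumors were 3.82 apart on the log2 scale, more than the log2 fold change of 3.52 (SE 1.36, limma, adjusted p = 0.514), which was 1.62 without tumor 26043 and 5.43 without tumor 26044. Wnt4, the progesterone-induced ligand, was at 19.7 and 3.01 FPKM against 1.28 and 0.652, and its log2 fold change of 2.23 (SE 0.85) was 1.05 without tumor 26043. Wnt5b was at 23.0 and 7.95 FPKM against 7.32 and 2.5, so that tumors 26044 and 26048 nearly met, and its log2 fold change of 1.44 (SE 0.69) was 0.73 without tumor 26043 and 0.82 without tumor 26050.

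Wnt7b varied mainly within each genotype, and the genotypes overlapped. It was at 15.5 and 3.07 FPKM in the triple-mutant tumors and at 14.2 and 4.18 in the double-mutant tumors, with a log2 fold change of -0.11 (SE 0.89). Wnt11 ranged from 0.201 to 1.18 FPKM and Wnt16 was at 3.49 FPKM in tumor 26048 and at no more than 1.01 in the others. The remaining 11 ligands, Wnt1, Wnt2, Wnt2b, Wnt3, Wnt3a, Wnt7a, Wnt8a, Wnt8b, Wnt9a, Wnt9b and Wnt10b, were below 1 FPKM in every tumor. Wnt9a was highest of them, at 0.262 and 0.652 FPKM against 0.935 and 0.868, and Wnt3a was listed at 0 in all 4 tumors.

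The order of the ligands changed from tumor to tumor. By FPKM, Wnt10a made up 43.6% of summed ligand FPKM in tumor 26043, where Wnt5b and Wnt6 followed at 13.3% and 13.1%. In tumor 26044 Wnt6 made up 47.3% and Wnt5a 30.6%. In double-mutant tumor 26048 Wnt7b led with 44.5%, followed by Wnt5b at 23.0%, whereas in tumor 26050 Wnt5a and Wnt7b were close at 29.0% and 28.4%. These shares describe single tumors and carry no replicate error. By the Cufflinks intervals, described next, Wnt5a (26.9 to 29.2) and Wnt6 (24.3 to 28.3) overlapped in tumor 26044, so their order there is uncertain. In tumor 26043 the interval of Wnt4 (20.5 to 22.9) lay above those of Wnt5b (15.3 to 18.1) and Wnt6 (12.1 to 14.9), unlike its FPKM. In tumor 26050 the interval of Wnt5a (3.86 to 4.69) lay above that of Wnt7b (2.67 to 3.57).

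**Figure D2:**
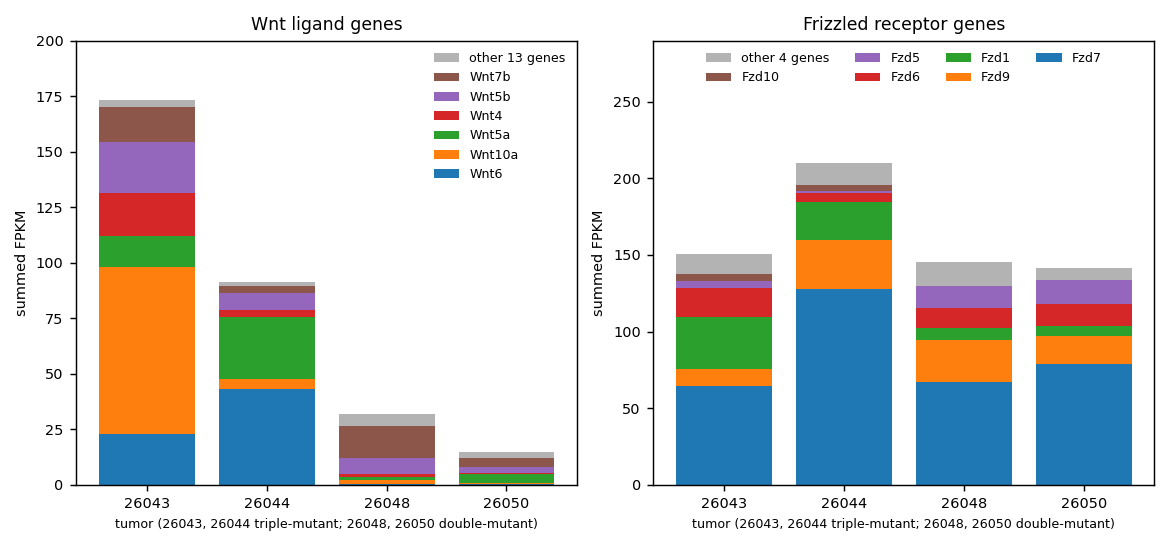
Summed FPKM of the 19 Wnt ligand genes (left) and the 10 frizzled genes (right) in each tumor, stacked by gene, with the remaining genes in grey. Ligand bars stand at 173 and 91.3 FPKM for the triple-mutant tumors and at 31.9 and 14.7 for the double-mutant tumors, with Wnt10a the largest segment in tumor 26043 and Wnt7b in tumor 26048, while frizzled bars run from 141 to 210 and Fzd7 is the largest segment in all 4.

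Several estimates carry a further uncertainty. Cufflinks gave a confidence interval with each FPKM, and 80 of the 142 values of at least 1 FPKM in the 59 genes lay outside their own interval, so that orders of genes within a tumor can depend on which value is used. For the neighbours Wnt10a and Wnt6 the FPKM lay outside it, at 2.54 and 2.44 times the interval's midpoint for Wnt10a and at 1.69 and 1.64 times for Wnt6 in tumors 26043 and 26044. With the midpoint in place of the FPKM the log2 fold change of Wnt10a was 2.67. For Wnt5a the ratios in these tumors were 0.999 and 0.995.

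Wnt6 and Wnt10a lie side by side on chromosome 1, at 74771892 to 74785319 and 74792019 to 74804175 on GRCm38, 6699 bases apart. Within 500 kb, 26 tested genes flanked Wnt6 and 25 flanked Wnt10a, and their median log2 fold changes were 0.02 and 0.04. In each window the only gene without overlap and with a log2 fold change of at least 1 in size was the other of this pair. On chromosome 6, 4 of 4 tested neighbours of Wnt16 and 3 of 4 of Wnt2 were higher in both double-mutant tumors, against 22.9% of all genes. The median log2 fold changes of these neighbours were -2.07 and -3.01, while Wnt16 itself overlapped between genotypes. Fam3c, 7999 bases from Wnt16, was at 30.4 and 18.2 FPKM against 1087 and 401, the widest gap among the neighbours of Wnt16. Tspan12 was at 20.8 and 7.25 FPKM against 26.5 and 213 and Ing3 at 5.9 and 3.81 against 5.95 and 44.4, so that both were well above the triple-mutant tumors only in tumor 26050.

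Wnt2 stayed at or below 0.237 FPKM in all 4 tumors although its neighbour Capza2 was at 76.7 and 44.5 FPKM against 1410 and 1295, and Met, the hepatocyte growth factor receptor, at 13.2 and 0.661 against 726 and 386. St7 was at 12.0 and 10.2 FPKM against 71.9 and 15.1, with tumor 26050 close to the triple-mutant tumors. Wnt1 and Wnt10b, at most 0.203 FPKM in every tumor, had Lalba, a milk protein gene, within 500 kb at 7.27 and 2.64 FPKM against 499 and 3813, beside Tuba1a (-1.20), Olfr284 (-1.26) and Fkbp11 (-1.02). Single neighbours without overlap and with a log2 fold change of at least 1 in size were found for Wnt4, Wnt7b and Wnt8b. They were Hspg2 (1.39, of 9 tested neighbours), Mirlet7b (-5.53, of 10) and Scd3 (-1.38, of 14). A pair each was found for Wnt11 (Tsku, 1.07, and Mtap6, 1.01, of 8) and for Wnt3a and Wnt9a (Hist3h2ba, 3.85, and Hist3h2a, 1.79, of 19 and 22). For Wnt1 and Wnt10b, 27 neighbours each were tested. Olfr284, Mirlet7b and Scd3 passed the filter only through the double-mutant tumors, so these had to differ. Of all tested genes, 7.3% were separated this way with triple-mutant tumors higher and 4.65% with double-mutant tumors higher.

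Ligand processing differed for the modifying enzyme more than for the carrier. Porcn, the acyltransferase that attaches the lipid to Wnt proteins, was at 19.8 and 31.9 FPKM in the triple-mutant tumors and at 3.47 and 1.34 in the double-mutant tumors. No double-mutant value came near a triple-mutant value, and the log2 fold change was 3.02 (SE 0.48, limma, adjusted p = 0.225). Wls, which carries the lipid-modified ligand to the surface, was at 23.0 and 30.4 FPKM against 23.4 and 9.34, with tumor 26050 low, and the genotypes overlapped. Its log2 fold change was 0.79 with all tumors and 0.17 without tumor 26050.

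The frizzled genes summed to similar levels in all tumors but 26044, at 151 and 210 FPKM against 145 and 141 and a median log2 fold change of 0.01 over 10 tested genes. Fzd7, a receptor of mammary basal cells, contributed 42.7% and 61.0% of the sum in triple-mutant tumors, 46.2% and 55.8% of it in double-mutant tumors, and ranked first in every tumor. Its levels of 64.4 and 128 FPKM against 67.2 and 78.8 overlapped, with a log2 fold change of 0.32 (SE 0.42). Fzd9 (11.3 to 32.0 FPKM), Fzd6 (5.83 to 18.8), Fzd2 (4.24 to 9.7) and Fzd4 (0.629 to 2.93) overlapped as well.

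Of the 10 frizzled genes, 3 lay higher in both triple-mutant tumors, 30% against 21.3% of all genes. The reverse held for 2, 20% against 22.9%. The log2 fold change was at least 1 in size for these 3 and for 1 of the 2, with backgrounds of 7.3% and 4.65%. Among the 3, Fzd10 passed the filter only through the triple-mutant tumors and so had to differ. Fzd1 was at 33.6 and 24.9 FPKM against 7.35 and 6.61, with tumors of a genotype close together and a log2 fold change of 1.91 (SE 0.31, limma, adjusted p = 0.234). Fzd10 was at 4.7 and 4.05 FPKM against 0.2 and 0.115, a log2 fold change of 2.21 (SE 0.30), and Fzd8 at 4.43 and 3.99 against 1.5 and 1.58, a log2 fold change of 1.04 (SE 0.30).

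Fzd5 ran the other way. It was at 4.83 and 1.19 FPKM in the triple-mutant tumors and at 14.6 and 15.2 in the double-mutant tumors, where the values were nearly equal. Its log2 fold change was -2.15 (SE 0.55, limma, adjusted p = 0.425). Fzd3 was also higher in both double-mutant tumors, at 1.02 and 0.969 FPKM against 1.22 and 1.23, a log2 fold change of -0.16.

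Among co-receptors, Ror2, a receptor for Wnt5a, was the exception. It was at 10.3 and 16.4 FPKM in the triple-mutant tumors and at 1.21 and 0.438 in the double-mutant tumors, for a log2 fold change of 2.97 (SE 0.42, limma, adjusted p = 0.196). Lrp5 and Lrp6, the co-receptors of beta-catenin signaling, were at 58.6 to 81.8 and 8.81 to 17.8 FPKM, and both overlapped with log2 fold changes of 0.15 (SE 0.29) and 0.07 (SE 0.43). Ror1 was between 0.822 and 2.87 FPKM and overlapped too.

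In the R-spondin axis the Lgr receptor genes differed in opposite directions. R-spondins bind Lgr4, Lgr5 or Lgr6 and remove the ubiquitin ligases Rnf43 and Znrf3, which otherwise clear frizzled receptors from the surface. Lgr6 was at 26.4 and 82.6 FPKM in the triple-mutant tumors and at 5.13 and 0.298 in the double-mutant tumors, apart between genotypes and wide within each, with a log2 fold change of 4.09 (SE 0.96, limma, adjusted p = 0.396). Lgr4 was at 24.6 and 16.2 FPKM against 26.8 and 51.6, a log2 fold change of -0.87 (SE 0.44) that was -0.41 without tumor 26050. Lgr6 was far below Lgr4 in both double-mutant tumors and far above it in tumor 26044. In tumor 26043 the order is uncertain, since the interval of Lgr6 ran from 15.6 to 17.9, below its FPKM, and that of Lgr4 from 23.7 to 25.5. Lgr5 was at 1.96 and 0.112 FPKM against 1.27 and 0.138 and overlapped.

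Rspo4 was the R-spondin gene separated by genotype, at 6.81 and 7.23 FPKM against 0.0602 and 0. The triple-mutant tumors were nearly equal and the double-mutant tumors near or at 0, and the log2 fold change of FPKM + 1 was 2.96 (SE 0.30, limma, adjusted p = 0.143). Because the added 1 dominates such low values, a pseudocount of 0.1 gave 5.81 for Rspo4 and 4.13 for Fzd10. Rspo1 and Rspo3 did not reach the filter because a single tumor reached 1 FPKM, tumor 26044 at 4.79 and 5.21 FPKM against 0.246 to 0.633 in the others. Rspo2 was at most 0.0945 FPKM. Rnf43 was at 7.68 and 7.65 FPKM against 5.57 and 2.5, and Znrf3 at 4.6 and 5.45 against 4.05 and 3.47, with log2 fold changes of 0.85 (SE 0.42) and 0.34 (SE 0.31).

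Antagonists were higher in both triple-mutant tumors for 3 of 6 tested genes, 50% against 21.3% of all genes, and higher in both double-mutant tumors for 2, 33.3% against 22.9%, of which Sfrp4 passed the filter only through the double-mutant tumors. Kremen1, a co-receptor of Dkk proteins, was at 22.4 and 51.7 FPKM against 11.3 and 7.38, a log2 fold change of 1.79 (SE 0.51). Dkk3, a divergent member of the Dickkopf family, was at 11.5 and 17.4 FPKM against 3.39 and 1.77, with no overlap and a log2 fold change of 2.12 (SE 0.41, limma, adjusted p = 0.319). Wif1, a secreted protein that binds Wnts, was at 15.0 and 82.8 FPKM against 12.1 and 2.77, so that tumor 26043 lay nearer to double-mutant tumor 26048 than to its own partner. Its log2 fold change was 2.38 (SE 1.03), 1.19 without tumor 26044 and 1.48 without tumor 26050.

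The secreted frizzled-related proteins, which bind Wnts through a frizzled-like domain, gave no common direction. Sfrp1 was at 18.3 and 45.7 FPKM against 13.3 and 18.8 and overlapped, with a log2 fold change of 0.84 that was 0.20 without tumor 26044. Sfrp4 was higher in the double-mutant tumors, at 0.261 and 0.102 FPKM against 1.97 and 2.21, a log2 fold change of -1.39 (SE 0.29, limma, adjusted p = 0.347), or -3.02 with a pseudocount of 0.1. Sfrp2 was at 1.48 and 4.2 FPKM against 4.33 and 5.99, a log2 fold change of -0.76 (SE 0.48). The remaining antagonists, Dkk1, Dkk2, Dkk4 and Sfrp5, were at no more than 0.896 FPKM in any tumor, so Dkk1, the classical Lrp6 inhibitor, was nearly undetected in these tumors (0.0128 to 0.0852 FPKM).

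**Figure D3:**
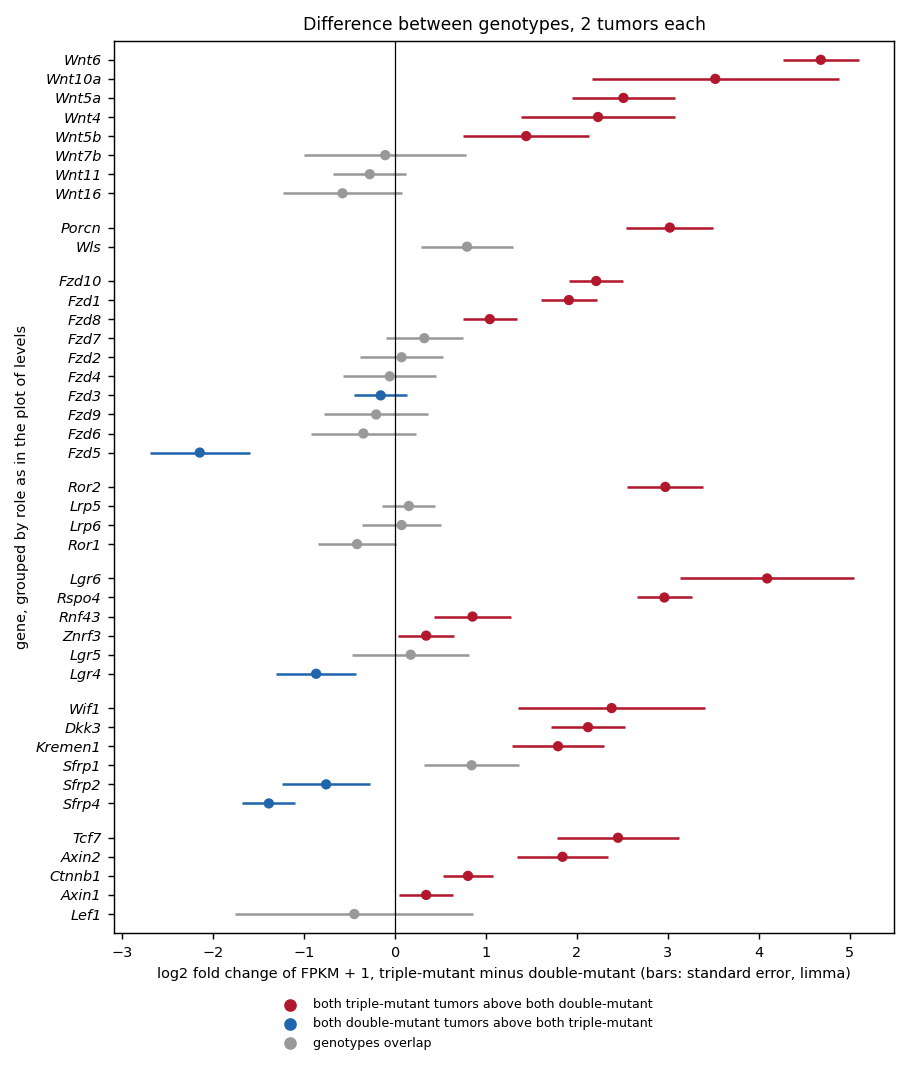
Log2 fold change of FPKM + 1, triple-mutant minus double-mutant, for the 41 tested genes grouped by role, with bars for the standard error from limma (2 tumors per genotype). Red points are genes higher in both triple-mutant tumors (21), blue points genes higher in both double-mutant tumors (5) and grey points genes whose genotypes overlap (15). The points run from -2.15 for Fzd5 to 4.68 for Wnt6, and the bars of Wnt10a and Lef1 are the longest.

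The genes of the beta-catenin complex and its nuclear partners were higher in both triple-mutant tumors for 4 of 5, 80% against 21.3% of all genes. Axin2, among the 4, passed the filter only through the triple-mutant tumors. Ctnnb1, encoding beta-catenin, was the most abundant of the 59 mRNAs in every tumor, at 414 and 349 FPKM against 239 and 199, means of 381 ± 45.4 and 219 ± 28.4 (SD, n = 2). The log2 fold change was 0.80 (SE 0.28, limma, adjusted p = 0.499). Axin2, which beta-catenin signaling induces as negative feedback, was at 6.49 and 2.86 FPKM against 0.952 and 0.149, a log2 fold change of 1.84 (SE 0.50, limma, adjusted p = 0.451), or 3.11 with a pseudocount of 0.1. Axin1, its constitutive counterpart in the destruction complex, was at 27.5 and 20.5 FPKM against 19.3 and 17.8, a log2 fold change of 0.34 (SE 0.30) that was 0.13 without tumor 26043 and 0.54 without tumor 26044.

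The TCF/LEF factors differed in composition. Tcf7 was at 32.3 and 92.2 FPKM in the triple-mutant tumors and at 14.0 and 5.94 in the double-mutant tumors, for a log2 fold change of 2.45 (SE 0.67, limma, adjusted p = 0.452). Together with Tcf7l1 and Tcf7l2, which are no members of the group, the 4 family genes summed to 67.9 and 165 FPKM against 79.2 and 58.5. Tcf7 made up 47.6% and 55.8% of that sum in the triple-mutant and 17.6% and 10.2% in the double-mutant tumors. Tcf7l1, mainly a repressor of Wnt target genes, made up 35.8% and 23.1% against 56.7% and 65.8%. The level of Tcf7l1 differed less than that of Tcf7, at 24.3 and 38.1 FPKM against 44.9 and 38.5, a log2 fold change of -0.44. Lef1 followed no genotype, at 0.63 and 21.8 FPKM against 9.12 and 5.86, with tumor 26043 the lowest and tumor 26044 the highest. Its log2 fold change of -0.45 (SE 1.31) turned to 1.45 without tumor 26043.

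The tumors of a genotype also differed from each other in these genes. The median absolute log2 difference between the triple-mutant tumors was 0.77 over the 41 genes and 0.45 over all tested genes, and between the double-mutant tumors 0.57 and 0.36. By 1 or more, 15 of the 41 genes differed between the triple-mutant tumors, 36.6% against 21.0% of all tested genes. Between the double-mutant tumors 11 did, 26.8% against 11.7%. Between tumors of different genotype the medians were 1.02 to 1.38, against 0.37 to 0.57 over all tested genes. There 21 to 27 genes differed by 1 or more, 51.2% to 65.9% against 15.1% to 27.1% of all tested genes. Tumor 26043 was high in Wnt10a and Wnt4 and tumor 26044 in Lef1, Wif1, Lgr6, Rspo1 and Rspo3. Only Wnt10a and Lef1 were 3 or more apart within a genotype.

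**Figure D4:**
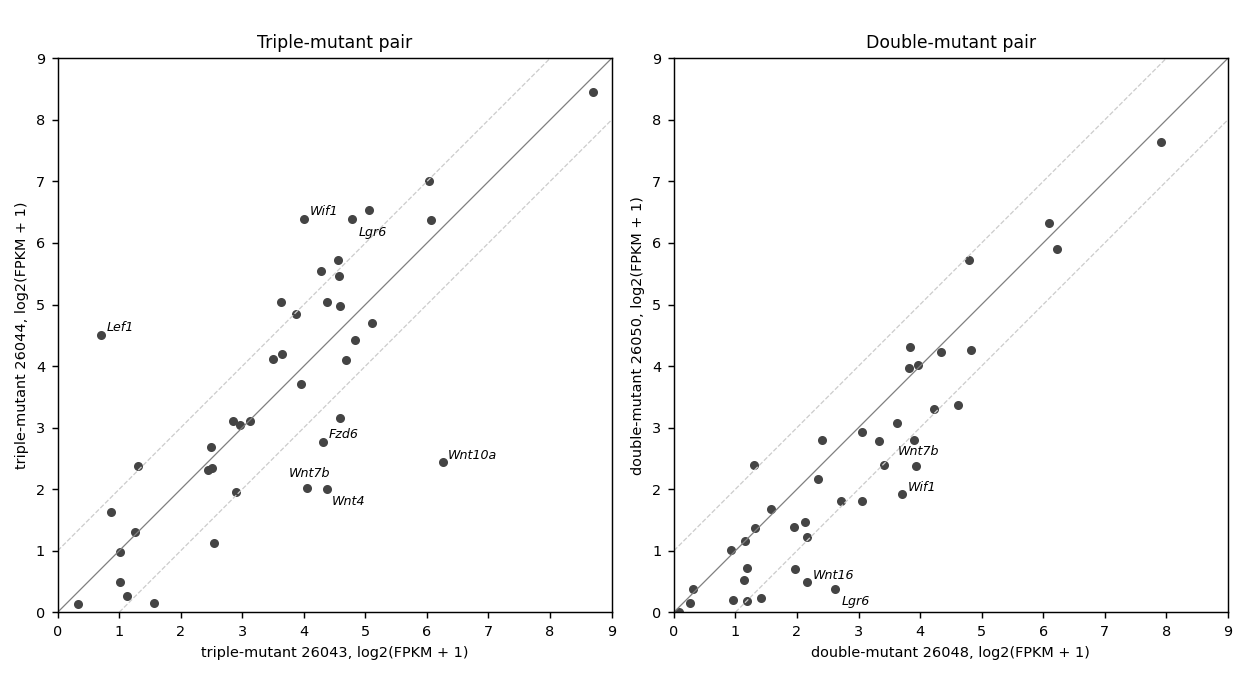
Level of the 41 tested genes in the tumors of the same genotype, log2(FPKM + 1), triple-mutant tumors 26043 and 26044 on the left and double-mutant tumors 26048 and 26050 on the right. The solid line marks equal levels and dashed lines a difference of 1, and genes at least 1.5 apart are named. On the left 15 genes lie 1 or more apart, with Wnt10a and Lef1 farthest on opposite sides, and on the right 11.

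Other genes of the pathway were examined beside the group. In 4 lists of intracellular components, further secreted and membrane modulators, planar polarity genes and beta-catenin target genes, 46 of the 54 genes found were tested. Of these, 15, 32.6%, lay higher in both triple-mutant tumors (background 21.3%) and 4, 8.7%, higher in both double-mutant tumors (background 22.9%). Sostdc1, Notum and Pygo1, among the 15, passed the filter only through the triple-mutant tumors and so had to differ. None passed limma at an adjusted p of 0.05, 7 had an unadjusted p below 0.05, and the median log2 fold change was 0.30. The difference between these shares and those of the 41 genes was not tested.

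Of the 10 tested modulators, 6 were higher in both triple-mutant tumors, 60% against 21.3% of all genes. The reverse held for 1, 10% against 22.9%, namely Dact2 at 45.1 and 13.5 FPKM against 69.1 and 87.9 (log2 fold change -1.61). Sostdc1, a secreted antagonist of Wnt and BMP signals, was at 40.1 and 5.31 FPKM against 0.128 and 0.145. Notum, a secreted enzyme that removes the lipid from Wnts, was at 2.96 and 5.81 FPKM against 0.307 and 0.0934. The log2 fold changes of Sostdc1, Gpc3 and Notum were 3.82, 2.50 and 2.12. Sostdc1 and Notum, among the 6, passed the filter only through the triple-mutant tumors, so their separation was fixed by it. Of 22 tested intracellular components 7 were higher in both triple-mutant tumors, 31.8% against 21.3% of all genes, and 3 in both double-mutant tumors, 13.6% against 22.9%. Pygo1 (1.55), Tle2 (1.38) and Bcl9 (-0.88) were the most displaced, and Pygo1 passed the filter only through the triple-mutant tumors. Of 6 planar polarity genes only Prickle1 (0.55) was higher in both triple-mutant tumors, 16.7% against 21.3% of all genes, and the others overlapped.

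The list of beta-catenin target genes gave a single separated gene among 8 tested, 12.5%, below the 21.3% of all genes. All 8 log2 fold changes were positive, from 0.05 to 3.68, with a median of 0.71 against -0.02 over all tested genes. Axin2, which beta-catenin signaling also induces, was counted with the group and not in this list. Ccnd1, encoding cyclin D1, was at 302 and 342 FPKM in the triple-mutant tumors and at 34.0 and 17.0 in the double-mutant tumors, for a log2 fold change of 3.68 (limma, adjusted p = 0.167). Myc, Cd44, Tnfrsf19, Procr, Nkd1, Nkd2 and Sox9 overlapped between genotypes, with Myc at 82.1 and 128 FPKM against 96.1 and 101. Sp5 and Mmp7 did not reach the filter.

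Cell type markers also differed between the tumors. Basal and myoepithelial markers summed to 1751 and 1287 FPKM in the triple-mutant tumors and to 73.0 and 48.9 in the double-mutant tumors. Of 7 tested markers 6 were higher in both triple-mutant tumors, 85.7% against 21.3% of all genes. Krt5 was at 596 and 114 FPKM against 1.15 and 2.06 and Trp63 at 28.5 and 48.1 against 1.24 and 0.67. Acta2, also among the 6, was high only in tumor 26044, at 64.8 and 898 FPKM against 59.7 and 31.8. Mylk overlapped, at 3.06 and 8.01 FPKM against 3.65 and 1.67, and Myh11 did not reach the filter. Hormone-sensing luminal markers summed to 83.6 and 16.8 FPKM against 10.1 and 8.92, with 3 of 4, 75% against 21.3% of all genes, higher in both triple-mutant tumors. Esr1 and Pgr, among the 3, passed the filter only through the triple-mutant tumors and so had to differ. Luminal markers summed to 2936 and 435 FPKM against 2332 and 2091, and 4 of 7, 57.1% against 22.9% of all genes, were higher in both double-mutant tumors (Krt8, Krt18, Epcam and Elf5), while Krt19 was higher in both triple-mutant tumors, at 1154 and 194 FPKM against 139 and 56.7. Tumor 26043, which was highest in Wnt4, was also highest in Foxa1, Esr1 and Pgr.

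Fibroblast markers ran the other way, at 206 and 123 FPKM against 908 and 439, with 5 of 8, 62.5% against 22.9% of all genes, higher in both double-mutant tumors. Dpt, among the 5, passed the filter only through the double-mutant tumors. Pdgfra was the exception, at 2.9 and 19.1 FPKM against 1.63 and 1.44. Adipocyte markers summed to 7.58 and 261 FPKM against 1390 and 31.5. In tumor 26044 that sum was Fabp4, with Adipoq and Plin1 at 0. Endothelial markers summed to 25.4 and 78.1 FPKM against 43.8 and 24.7 and macrophage markers to 138 and 50.4 against 182 and 111. Of 5 macrophage markers 3, 60% against 22.9% of all genes, were higher in both double-mutant tumors (Cd68, Emr1 and Itgam). None was higher in both triple-mutant tumors (background 21.3%). Lymphocyte markers were at no more than 3.01 in any tumor and skeletal muscle markers at 2.58 to 39.4. The part of cell type composition in the Wnt gene levels was not tested, and in whole tumors fewer cells of a type and less RNA per cell cannot be told apart.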

How the data were processed

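PolyA mRNA of 4 tumors was sequenced by the authors as 50-bp single-end, strand-specific reads. According to the submitters' processing notes, reads were aligned to mm10 with TopHat2 2.0.10 and Bowtie 0.12.9, and FPKM with a confidence interval was estimated with Cufflinks 2.1.1. The deposited FPKM tables, 1 per tumor, were used as given; the authors' counts, made with HTSeq and tested with DESeq2 1.6.2, were not analysed here. Genotypes and tumor numbers came from the sample labels.

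Tables were joined on symbol and position (23746 rows, status OK for the 59 genes in all tumors). Genes reaching 1 FPKM in 2 or more tumors were fitted as log2(FPKM + 1) with limma 3.58.1 in R 4.3.3 (lmFit, eBayes with a trend), all 4 tumors without covariates, Benjamini-Hochberg adjusted over 12752 genes at 0.05. A fold change on this scale understates that of low genes. The script was tested on simulated data. Depth is unknown. The median half-width of the Cufflinks interval was 18% for values of 1 to 5 FPKM and 6.21% above, and 80 of 142 values of at least 1 FPKM lay outside their own interval. Coordinates count from 1 on GRCm38, where 98% of 21013 rows overlapped the RefSeq gene of their symbol. Python 3.11.15 with pandas 2.3.3 made the counts and matplotlib 3.10.9 the plots.

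Named were members without overlap and with a log2 fold change of at least 1 in size. Neighbours within 500 kb of a ligand that met both criteria were named as well. Members at 10 FPKM or more in any tumor, or 3 or more apart within a genotype, were named too. So were the untested members, the beta-catenin, Axin, Lef1 and Tcf7 genes, the 3 most displaced genes without overlap of each further list, and the targeted genes. Fzd2, Fzd3, Fzd4, Ror1, Lgr5, Rnf43, Znrf3, Sfrp2, Wnt11, Wnt16, Dact2, the overlapping target genes, the marker genes and the ligands' shares were added after their values were seen. Members and lists were chosen with earlier results of these data known.

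As alternatives, each tumor was left out in turn, limma was run without its trend, values were quantile normalized or brought to TPM, the pseudocount was set to 0.1, the minimum was raised to 5 FPKM or dropped, and only rows of status OK were kept. The interval midpoint and a filter on the mean over the 4 tumors were added after seeing the data.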

Additional observations from a re-analysis of the deposited data

How the results depend on the processing

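No paired analysis was possible because the tumors carry no number shared between genotypes. Under every alternative 0 of the tested Wnt pathway genes were called by limma, and the smallest adjusted p of the 31 genes followed by name was 0.0974. Of their 397 alternative values 386 kept direction and side of the threshold and 11, in 7 genes, reversed, all with a tumor left out: Wnt7b ranged from -1.12 to 0.90, Fzd7 from -0.17 to 0.81, Fzd9 from -0.93 to 0.50, Fzd6 from -1.12 to 0.41, Lrp5 from -0.0094 to 0.32, Lrp6 from -0.40 to 0.54 and Lef1 from -2.35 to 1.45. Genes higher in every triple-mutant tumor used numbered 15 with a filter of 5 FPKM (27 genes tested), 55.6% against 20.9% of all genes. Without a filter they numbered 23, 39% against 16.5%, and under the other settings 21 or 22. With a tumor left out they numbered 22 to 27, but the share of all genes rose too. The shares were 65.9% against 33.2% without tumor 26043 and 61% against 40.2% without tumor 26044. Without tumor 26048 they were 65.9% against 36.4%, and without tumor 26050 53.7% against 30.8%. Genes higher in every double-mutant tumor used numbered 8 without a filter (59 genes), 13.6% against 16.2% of all genes. With a filter of 5 FPKM they numbered 2, 7.41% against 23.8%. With a tumor left out they numbered 5 to 10, 12.2% to 24.4% against 31.9% to 45.1%. Those of them with a log2 fold change of at least 1 in size numbered 1 with a filter of 5 FPKM. With a tumor left out these numbered 3 to 5 (5 without tumor 26043), and the share of all genes was not computed. The median log2 fold change was 0.15 without a filter and 0.40 to 0.86 with a tumor left out. The median over all genes was -0.12 without tumor 26043 and between -0.05 and 0.06 otherwise. Across all genes, limma called 6 under quantile normalization, 5 without the trend and 1 with the interval midpoint. Depth is unknown, so the error of low values could not be judged beyond the Cufflinks interval.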
